A study of Homo sapiens with 24 samples.

Results

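GSK-J1 was set against sham in SAS cells without irradiation, across all genes. SAS is an established line of squamous cell carcinoma of the head and neck (HNSCC), which the labels assign to the tongue and give as WT in genotype. The comparison was chosen by the labelled line and treatment and holds 6 of the 24 libraries of the series, 3 with GSK-J1 and 3 with sham. The GSK-J1 cells had received 4.5 µM of the compound and RNA was taken after 24 h, while the other group is labelled as sham, and the methods of the study name the solvent DMSO as the control. The other libraries hold GSK-J1 with 4 Gy of X-rays and 4 Gy alone in SAS, and the same treatments in Cal33, another HNSCC line. The 3 libraries of a group are numbered, but no source says that they came from separate cultures, so p-values measure the spread between these samples, which may be technical.

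GSK-J1 inhibits KDM6A (UTX) and KDM6B (JMJD3), the demethylases that remove the methyl groups of H3K27me3. This histone mark is written by the Polycomb complex around EZH2 and is found at silent genes, so that an inhibitor of its removal is known to leave inducible genes less readily switched on, as described for cytokine genes of macrophages. GSK-J1 is an acid and enters cells less well than its ester form. No histone mark was measured in these libraries, which report RNA alone. In RNA from a whole culture, fewer cells of a kind and less RNA per cell cannot be told apart.

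Each library held between 67945989 and 96138774 counts on the strand of the gene, given below as CPM, which are counts scaled to the TMM-adjusted size of the library. All 13 markers of squamous epithelium were detected, with a summed level of 7003 to 8864 CPM under GSK-J1 and 6799 to 9319 CPM under sham. Markers of other cell types summed to between 19.9 and 83.4 CPM under GSK-J1 and between 25.1 and 117 CPM under sham, with the pan-leukocyte gene PTPRC at 1 count or none and the lymphocyte genes CD3D, CD3E and MS4A1 at 0, and the macrophage genes LYZ and CD68 at 1 to 3 and 9 to 15 counts a library, while the endothelial cadherin CDH5 and the monocyte receptor CD14 were detected and called lower (log2 fold changes -0.58 and -0.43), 2 of the 13 such genes tested. VWF, PMEL and COL1A1 of that list were detected too, at up to 10.4, 3.05 and 3.3 CPM, and were not called. Of the 13 tested, 8 had a positive and 5 a negative log2 fold change (median 0.0151). The part of other cell types in the results was not tested. GSK-J1 replicate 1 held transcripts that belong to Cal33, as the 8 marker genes that SAS does not transcribe had 1.48% of their Cal33 level there and at most 0.00805% in the SAS libraries other than it and GSK-J1 with 4 Gy replicate 1 (0.796%). For each gene the share of the counts of GSK-J1 replicate 1 that this trace would make up was therefore computed, and genes at 10% or more are named as trace genes. Libraries with the same number lay together, since their deviations from the group means correlated at 0.332, 0.29 and 0.539 across 23040 genes, against at most 0.0458 for any other pairing, and the first principal component (69.9% of the variance) set replicate 3 of both groups apart. Genes are not independent replicates, so these correlations are descriptions. The test was edgeR's quasi-likelihood test with the replicate number as a block, and genes with a p under 0.05 after Benjamini-Hochberg adjustment over all genes tested are termed called.

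More genes were lower than higher under GSK-J1. Of 23040 genes tested, 596 (2.59%) were called, of which 174 (0.755%) were higher and 422 (1.83%) lower. Trace genes made up 28 of the genes called higher and 34 of those called lower, so 146 higher and 388 lower genes remain, and these are described below. Most changes were small, since 18 of the 146 higher and 90 of the 388 lower genes changed by at least 1.5-fold, and 3 and 19 by at least 2-fold. The median log2 fold change was 0.29 among the higher genes and -0.40 among the lower genes, against 0.00265 among all genes tested. The 3 pairs had the same direction for 141 of the 146 higher genes and 378 of the 388 lower ones, while the share of all genes with 3 pairs in that direction was 15% and 15.4%. The GSK-J1 and sham libraries did not overlap for 22 of the higher genes and 36 of the lower ones, and for 2.39% and 2.83% of all genes tested.

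These calls rest on the pairing. Without the replicate block edgeR called 0 genes (316 at an unadjusted p under 0.05, lowest adjusted p = 1) and DESeq2 called 1, TRIML2. With the block DESeq2 called 376 and limma 544. The biological coefficient of variation common to all genes was 0.0535 with the block and 0.192 without it. The blocked fit keeps 2 residual degrees of freedom, so its small p-values draw on the spread that edgeR shares between genes. Without GSK-J1 replicate 1, the library with the trace, 386 genes were called (76 higher, 0.33%, and 310 lower, 1.34%), of which 60 belong to the 146 higher and 236 to the 388 lower genes. All 146 and 388 genes kept their direction there. Without sham replicate 1, its partner, 360 were called.

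**Figure D1:**
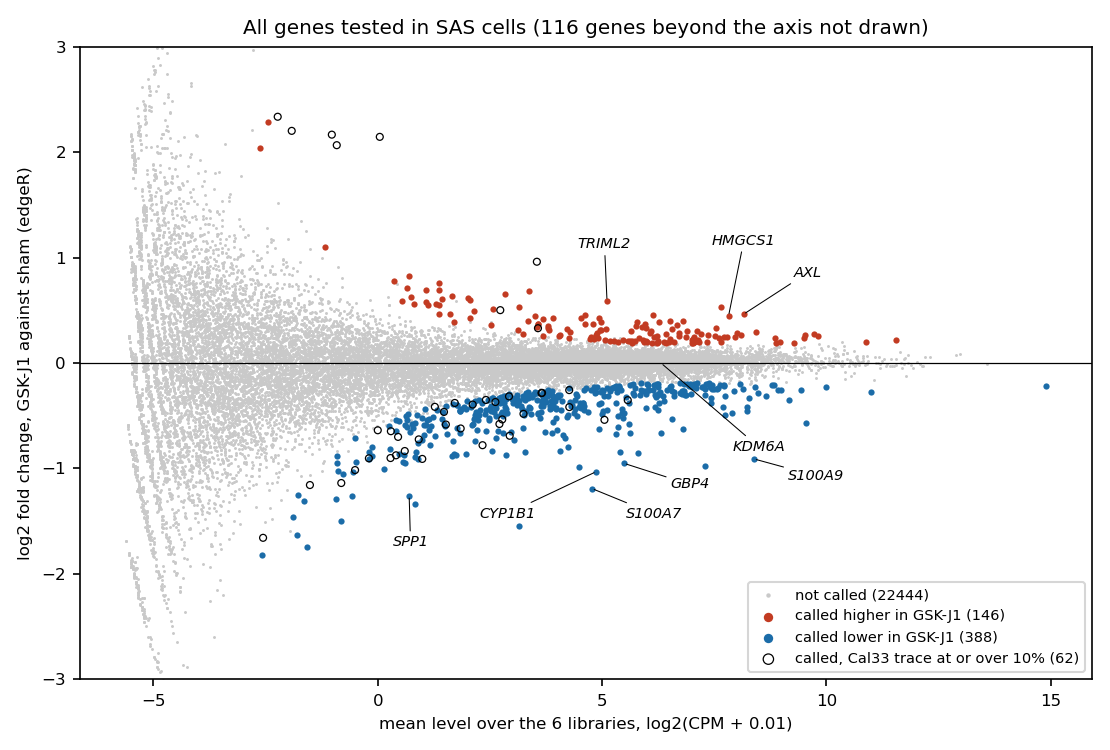
Each point is 1 of the genes tested, by its mean level over the 6 libraries (horizontal, log2 of CPM plus 0.01) and its log2 fold change of GSK-J1 against sham (vertical). The 388 genes called lower (blue) have a median of -0.40 and the 146 called higher (red) a median of 0.29, open circles are the called trace genes, and 116 genes lie beyond the vertical limits.

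The targets of the inhibitor were transcribed at like levels in both groups. KDM6A had 72.5, 82.8 and 84.2 CPM in GSK-J1 replicates 1 to 3, against 71.8, 80.1 and 88.4 CPM in sham replicates 1 to 3. KDM6B had 53.5, 46.2 and 58.9 CPM under GSK-J1, against 55.9, 52.2 and 57.6 CPM under sham. The groups overlapped for both genes and neither passed the test (log2 fold change -0.0026, standard error 0.051, edgeR adjusted p = 0.999 for KDM6A, and -0.07, 0.055 and 0.806 for KDM6B). None of the 28 genes of the H3K27 demethylases and Polycomb list was called, nor any of 25 other Jumonji demethylases or of 35 HOX genes tested, which are classic Polycomb targets, by edgeR or by DESeq2 and limma with the block. At an unadjusted edgeR p under 0.05 there were 3, 0 and 4 of them, and the medians of these lists were -0.01, 0.0013 and -0.04. Among markers used for cancer stem cells, the hyaluronan receptor CD44 had 642, 605 and 747 CPM under GSK-J1 and 564, 560 and 683 CPM under sham, which did not pass (log2 fold change 0.14, standard error 0.050, edgeR adjusted p = 0.190). ALDH1A3, an aldehyde dehydrogenase that makes retinoic acid, gave a log2 fold change of -0.04 (edgeR adjusted p = 0.922), and PROM1 was at or under 0.0742 CPM in every library.

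Genes of the response to interferon made up several families of the lower genes. Interferons act through STAT factors and IRF1, which switch on GTPases, antiviral sensors and the machinery that loads peptides on MHC class I. IRF1 itself fell, with 257, 201 and 141 CPM in GSK-J1 replicates 1 to 3, against 356, 282 and 193 CPM in sham replicates 1 to 3. Each GSK-J1 library lay below the sham library of its number while the groups overlapped (log2 fold change -0.47, standard error 0.049, edgeR adjusted p = 5.01e-07). IRF1 was named after its value was seen. Of 7 interferon regulatory factors tested, a family also chosen after values were seen, 1 was called lower and none higher (median -0.09). GBP4, a guanylate-binding GTPase on chromosome 1 of hs37d5 from 89646831 to 89664615, had 53.7, 33.2 and 5.71 CPM under GSK-J1, against 107, 59.5 and 11.7 CPM under sham. Its level differed by more between replicates 1 and 3 than between the groups, yet it was lower by a like factor in each pair (log2 fold change -0.95, standard error 0.059, edgeR adjusted p = 7.46e-11).

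The guanylate-binding proteins fell as a family, with 6 of the 7 members tested called lower, none higher and a median log2 fold change of -0.66. Without GSK-J1 replicate 1, 6 were called lower and the median was -0.41. GBP2 had 99.1, 71.1 and 11.7 CPM under GSK-J1 and 168, 107 and 18.3 CPM under sham (log2 fold change -0.66, standard error 0.054, edgeR adjusted p = 5.16e-09). GBP1, GBP3 and GBP6 fell by 0.44, 0.44 and 0.31 on the log2 scale, and GBP5 is a trace gene, with 26.5% of its counts in GSK-J1 replicate 1 from the trace. Reads of such close paralogs can be split among them by the counting, so the single members are less certain than the family. The apolipoproteins L behaved likewise, with all 5 members tested called lower in the full set (median -0.48) and in the set without GSK-J1 replicate 1 (median -0.45). APOL4 had 22.6, 21.9 and 1.64 CPM under GSK-J1, against 42.0, 42.4 and 4.02 CPM under sham, and APOL1, APOL2 and APOL3 beside it had log2 fold changes of -0.48, -0.47 and -0.48 (highest of their edgeR adjusted p = 7.57e-06). These 4 genes lie next to each other on chromosome 22, from 36536372 to 36663576. Both families were singled out after their values were seen.

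Genes of antigen presentation by MHC class I were lower in part. Of 18 genes tested, 18 had a negative log2 fold change and 10 were called lower (median -0.21), but without GSK-J1 replicate 1 the count was 2, HLA-B and PSMB10, with a median of -0.20. HLA-B, a heavy chain of MHC class I, had 231, 134 and 80.3 CPM under GSK-J1 and 326, 169.2 and 98.2 CPM under sham (log2 fold change -0.38, standard error 0.052, edgeR adjusted p = 3.77e-05). B2M, the light chain, had 505, 478 and 278 CPM under GSK-J1 and 617, 508 and 331 CPM under sham (log2 fold change -0.21, edgeR adjusted p = 0.0217). Each GSK-J1 library was below its sham partner for both genes, and the groups overlapped. PSMB8, PSMB9 and PSMB10, the catalytic subunits that turn the proteasome into the immunoproteasome, fell by 0.30, 0.32 and 0.51 on the log2 scale. TAP1, which carries peptides into the endoplasmic reticulum, fell by 0.20 (edgeR adjusted p = 0.0478), TAPBP, which bridges it to MHC class I, by 0.25, and ERAP1, which trims the peptides, by 0.21. HLA-C and HLA-F were also called lower, while HLA-E was not (log2 fold change -0.08, edgeR adjusted p = 0.685), and reads of HLA genes may be shared among them.

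Of 39 interferon-stimulated genes tested, 15 were called lower and 1 higher (median -0.23), and 7 lower ones and none higher remained when trace genes were left aside. Without GSK-J1 replicate 1, 9 were called lower and none higher, a count that includes trace genes such as IFIT3 and TRIM22. IFITM3, a membrane protein that blocks virus entry, had 521, 492 and 295 CPM under GSK-J1 and 697, 583 and 316 CPM under sham (log2 fold change -0.25, standard error 0.056, edgeR adjusted p = 0.00745), a difference that was largest in pair 1 and did not pass without GSK-J1 replicate 1 (adjusted p = 0.358). SAMD9, an antiviral factor, fell by 0.36 and IFIT2, which binds viral RNA, by 0.30. PARP9, DTX3L and PARP14, neighbours on chromosome 3 that act together in ADP-ribosylation, fell by 0.23, 0.20 and 0.23. Without GSK-J1 replicate 1 they were not called (lowest edgeR adjusted p = 0.146), while SAMD9 and IFIT2 still were (highest 0.00191). TNFSF10, the death ligand TRAIL, had 67.9, 45.9 and 7.78 CPM under GSK-J1, against 119, 81.8 and 15.0 CPM under sham (log2 fold change -0.85, standard error 0.055, edgeR adjusted p = 7.46e-11). SECTM1, a secreted and membrane-bound ligand of T cells, had 28.7, 39.6 and 23.2 CPM under GSK-J1 and 55.2, 67.3 and 41.1 CPM under sham. All 3 GSK-J1 libraries were below all 3 sham libraries for SECTM1 (log2 fold change -0.85, standard error 0.057, edgeR adjusted p = 1.19e-10). IDO1, which degrades tryptophan, was at 0.445, 0.400 and 0.0372 CPM under GSK-J1 and 1.37, 0.840 and 0.246 CPM under sham (log2 fold change -1.50, standard error 0.25, edgeR adjusted p = 0.000415), and CIITA, the master regulator of MHC class II, fell by 0.50, both named after their values were seen. Of 11 MHC class II genes tested, a family also grouped after values were seen, 2 were called lower and none higher (median -0.09).

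Promoters of these genes are shown because the members fell together and because the letters bound by interferon-activated factors can be read in them. The windows run from 250 bases before to 50 after the start of the gene in RefSeq (GRCh38.p14, another build than that of the files), in the direction of transcription, and the table matched 226 of the 388 lower genes, 85 of the 146 higher genes and 11582 of the 23040 tested. Capitals mark the core of the interferon-stimulated response element, GAAA and again GAAA with 2 bases of any kind between them, searched on both strands, so that TTTC stands in place of GAAA where it lies on the other strand, and in IRF1 they mark TTCNNNGAA, the site of STAT factors, which reads alike on both strands. The windows are chr6:32853655-32853954 for TAP1 (minus strand), chr15:44711267-44711566 for B2M (plus strand), chr1:89198893-89199192 for GBP4 (minus strand) and chr5:132490724-132491023 for IRF1 (minus strand).
TAP1: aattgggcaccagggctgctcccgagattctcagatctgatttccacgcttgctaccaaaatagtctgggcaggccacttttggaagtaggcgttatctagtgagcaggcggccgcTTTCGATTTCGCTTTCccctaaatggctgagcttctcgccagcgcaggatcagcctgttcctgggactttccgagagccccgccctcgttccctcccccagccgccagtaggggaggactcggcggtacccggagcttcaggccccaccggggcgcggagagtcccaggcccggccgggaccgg
B2M: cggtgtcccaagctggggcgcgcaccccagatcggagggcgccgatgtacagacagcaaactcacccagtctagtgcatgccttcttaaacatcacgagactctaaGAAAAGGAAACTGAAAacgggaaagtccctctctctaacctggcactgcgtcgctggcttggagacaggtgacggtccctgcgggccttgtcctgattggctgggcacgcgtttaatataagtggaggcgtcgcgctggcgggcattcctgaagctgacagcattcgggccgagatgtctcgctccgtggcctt
GBP4: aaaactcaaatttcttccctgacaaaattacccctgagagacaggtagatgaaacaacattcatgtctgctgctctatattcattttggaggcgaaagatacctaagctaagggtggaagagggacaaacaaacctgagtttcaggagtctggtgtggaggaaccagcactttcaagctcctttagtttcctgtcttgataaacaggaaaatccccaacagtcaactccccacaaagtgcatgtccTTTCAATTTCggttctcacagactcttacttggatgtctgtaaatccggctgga
IRF1: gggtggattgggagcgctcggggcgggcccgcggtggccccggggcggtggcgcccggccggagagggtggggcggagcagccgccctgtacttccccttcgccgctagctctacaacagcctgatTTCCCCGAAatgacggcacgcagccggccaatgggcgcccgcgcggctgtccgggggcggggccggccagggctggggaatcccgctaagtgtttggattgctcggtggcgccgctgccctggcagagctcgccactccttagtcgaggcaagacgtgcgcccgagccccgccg
In TAP1 and B2M 2 matches overlap in 1 run, which starts 134 and 144 bases before the start of the gene, in GBP4 a single match starts 4 bases before it, and in IRF1 the STAT site starts 124 bases before it. The response element core was found in 25 of the 226 promoters of lower genes (11.1%), in 1 of the 85 of higher genes (1.18%), in 2.97% of the promoters of genes tested and in 3.65% of the 27305 promoters of the table. Beside those printed, it stood in the promoters of GBP1, GBP3, SECTM1, TNFSF10, PSMB10, TAPBP, ERAP1, HLA-F, IFITM3, SAMD9, DTX3L and PARP14. The STAT site was found in 8.41% of the promoters of lower genes and 6.4% of those tested. A match of letters is a description and not evidence of binding.

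**Figure D2:**
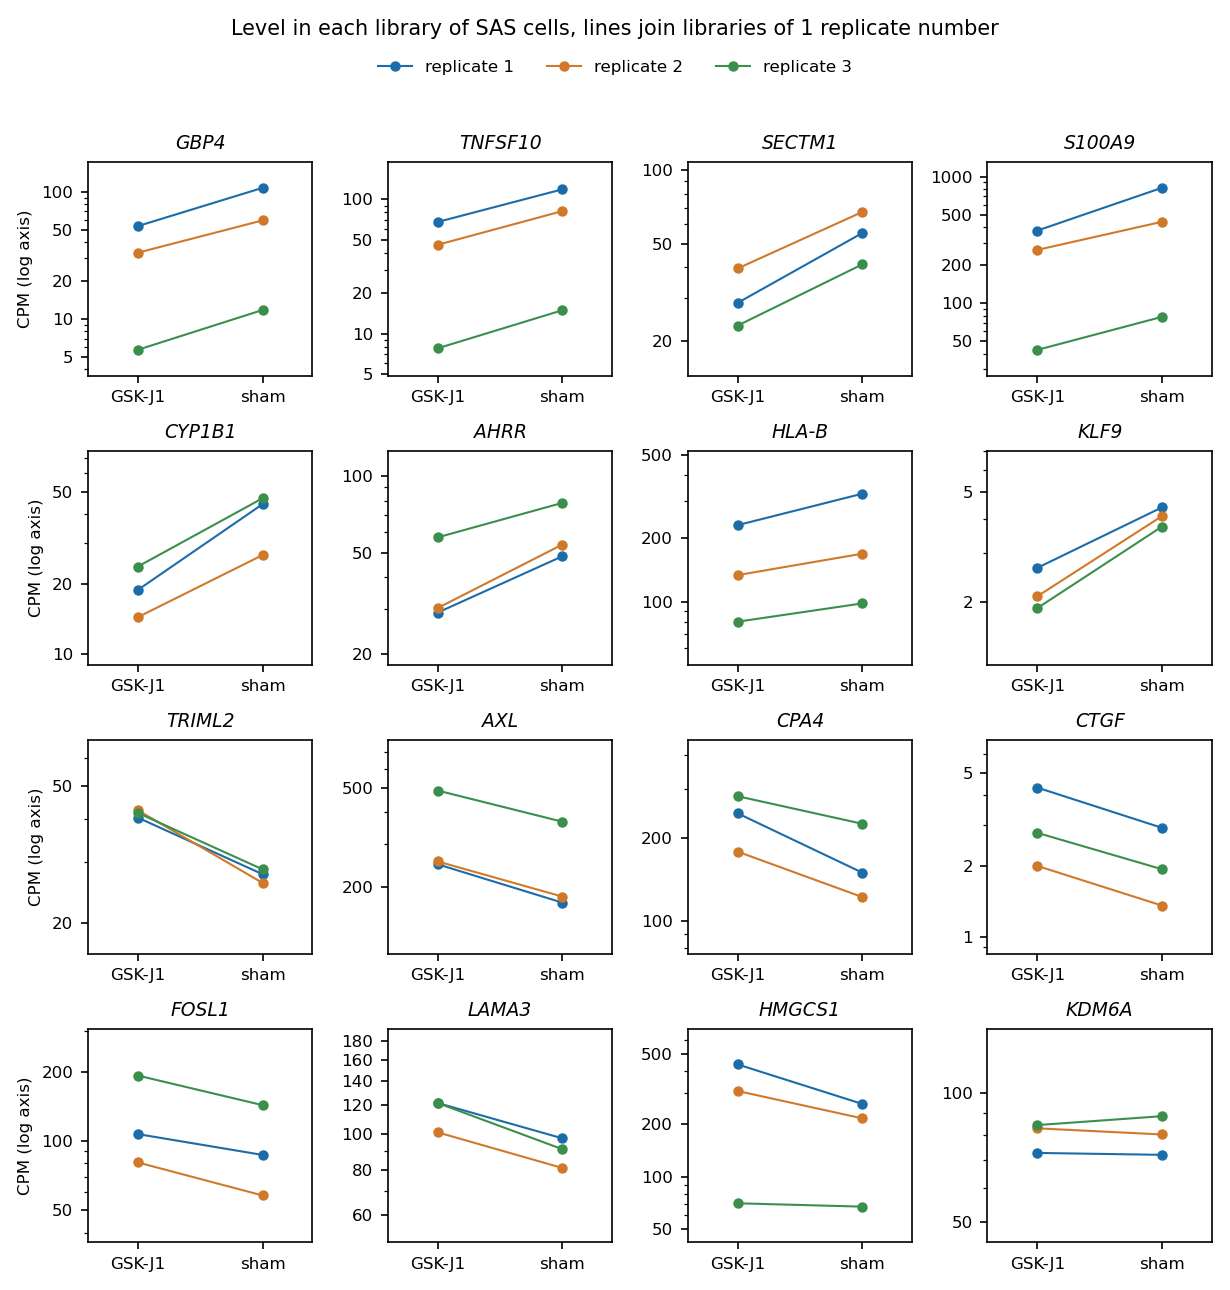
Level of 16 genes (vertical, CPM on a log axis) in the 3 GSK-J1 libraries (left of each panel) and the 3 sham libraries (right), with lines joining libraries of the same replicate number. The lines of GBP4, TNFSF10 and S100A9 run nearly parallel although replicate 3 lies far below the others, all GSK-J1 points of TRIML2 lie above all its sham points, and the lines of KDM6A are nearly flat.

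Targets of the aryl hydrocarbon receptor, a ligand-activated factor that senses xenobiotics and tryptophan metabolites, were lower in part. CYP1B1, a monooxygenase of estrogens and xenobiotics, had 18.9, 14.4 and 23.8 CPM in the GSK-J1 libraries and 44.2, 26.7 and 46.8 CPM in the sham libraries. All GSK-J1 libraries lay below all sham libraries (log2 fold change -1.03, standard error 0.066, edgeR adjusted p = 7.46e-11). AHRR, which represses the receptor and is induced by it, had 29.1, 30.3 and 57.4 CPM under GSK-J1 and 48.4, 53.8 and 78.3 CPM under sham (log2 fold change -0.66, standard error 0.062, edgeR adjusted p = 6.45e-08). TIPARP, an ADP-ribosyltransferase that also damps the receptor, and UGT1A6, which conjugates phenols with glucuronic acid, fell by 0.27 and 0.54 on the log2 scale. In all, 4 of 15 genes tested in a list of targets, the receptor AHR, its partner ARNT and the related factor NFE2L2 were called lower and none higher, with a median of -0.03. CYP1A1, the best-known target, is a trace gene and was not called (log2 fold change -0.70, edgeR adjusted p = 0.384). Without GSK-J1 replicate 1, 5 of the list were called lower, CYP1A1 among them. The promoter of AHRR is printed for the receptor's core letters, GCGTG (capitals, searched on both strands), which start 30 bases before the start of the gene (chr5:321464-321763, plus strand, GRCh38.p14, RefSeq).
AHRR: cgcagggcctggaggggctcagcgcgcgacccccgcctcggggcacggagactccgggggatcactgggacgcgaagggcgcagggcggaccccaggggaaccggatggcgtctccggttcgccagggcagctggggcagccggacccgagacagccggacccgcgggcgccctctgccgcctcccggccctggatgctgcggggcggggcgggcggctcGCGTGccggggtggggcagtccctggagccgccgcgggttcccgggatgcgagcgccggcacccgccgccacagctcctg
The core is frequent, as it stood in 48.3% of the promoters of genes tested, in 36.7% of those of lower genes and in 49.4% of those of higher genes.

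Some genes of squamous differentiation and of the epithelial defence were lower, although most of the differentiation list was not called. S100A9, a subunit of the calcium-binding defence protein calprotectin, had 375, 264 and 42.8 CPM under GSK-J1 and 818, 440 and 78.1 CPM under sham (log2 fold change -0.91, standard error 0.060, edgeR adjusted p = 7.46e-11). S100A7, psoriasin, had 21.7, 22.9 and 3.80 CPM under GSK-J1 and 66.9, 42.5 and 7.48 CPM under sham (log2 fold change -1.19, standard error 0.092, edgeR adjusted p = 1.70e-09). Both genes were lower in each pair, with the groups overlapping because replicate 3 of sham lay below replicates 1 and 2 of GSK-J1. Of 46 squamous differentiation genes tested, 14 were called lower and 3 higher (median -0.18), and 13 and 1 without trace genes. Without GSK-J1 replicate 1, 10 were called lower and 1 higher. In the full set those lower, beside S100A9 and S100A7, were IVL, a precursor of the cornified envelope, and the kallikrein proteases KLK10, KLK11 and KLK13. Also lower were the keratins KRT17 and KRT19, the desmosomal cadherin DSC2, the differentiation factor ZNF750 and the protease inhibitor SLPI. SERPINB3 and SERPINB4, close paralogs that inhibit proteases, were lower too. KLK11, KLK13, KRT17, KRT19, DSC2 and ZNF750 were not called without GSK-J1 replicate 1 (lowest edgeR adjusted p = 0.0586). KRT17 had 385, 425 and 413 CPM under GSK-J1 and 466, 518 and 435 CPM under sham, without overlap (log2 fold change -0.21, standard error 0.053, edgeR adjusted p = 0.0239). KLK5, a kallikrein that starts desquamation, was the gene called higher in this list beside the trace genes KRT6A and KRT13 (log2 fold change 0.20, edgeR adjusted p = 0.0277). Without GSK-J1 replicate 1, KRT6A was still called higher (log2 fold change 0.74, edgeR adjusted p = 4.80e-09), while KRT13 was called lower (3.82 with that library and -1.14 without it, edgeR adjusted p = 0.00128 and 0.00207). In the full set, DESeq2 with the block did not call KRT6A (adjusted p = 0.348). The identity markers of squamous epithelium were not called, and their median was -0.02.

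Several secreted defence factors were lower along with them. C3, the central component of complement, had 109, 106 and 40.5 CPM under GSK-J1 and 206, 158 and 52.0 CPM under sham (log2 fold change -0.62, standard error 0.067, edgeR adjusted p = 7.95e-07). Of 17 complement genes tested, a family chosen after values were seen, 7 were called lower and none higher, among them C3, CLU, C1S, C1R, CFI and the trace gene CFB, and 5 were called lower without GSK-J1 replicate 1. SLPI had 40.9, 28.1 and 12.8 CPM under GSK-J1 and 58.9, 38.5 and 16.5 CPM under sham. LCN2, an iron-sequestering defence protein, fell by 0.54 and the elastase inhibitor PI3 by 0.72, but both are trace genes, with 18.2% and 22.1% of their counts in GSK-J1 replicate 1 from Cal33. Without that library LCN2 was still called lower (log2 fold change -0.43, edgeR adjusted p = 0.000257), whereas PI3 was not called (-0.31, edgeR adjusted p = 0.793). Genes tied to retinoids, also grouped after their values were seen, moved likewise, with 4 of 18 tested called lower and none higher, RARRES3 and RARRES1, which retinoids induce, DHRS3, which reduces retinaldehyde, and STRA6, the receptor for retinol-binding protein. RARRES3 had 19.6, 16.8 and 3.20 CPM under GSK-J1 and 42.9, 26.0 and 4.51 CPM under sham (log2 fold change -0.79, standard error 0.087, edgeR adjusted p = 1.02e-06), and its neighbours HRASLS2 and PLA2G16 on chromosome 11, also phospholipid-modifying enzymes, were called lower too.

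Other lower genes belong to no single list. ALPP, a placental type alkaline phosphatase whose reads can be shared with the paralog ALPPL2, had 68.7, 208 and 43.5 CPM under GSK-J1 and 172, 381 and 72.5 CPM under sham (log2 fold change -0.98, standard error 0.070, edgeR adjusted p = 4.71e-10). Replicate 2 was the highest of both groups for ALPP, as for SECTM1, whereas replicate 1 was the highest of both for S100A9 and GBP4. IGFBP3, which binds insulin-like growth factors, had 689, 820 and 328 CPM under GSK-J1 and 1033, 1122 and 520 CPM under sham (log2 fold change -0.57, standard error 0.053, edgeR adjusted p = 6.45e-08). The calcium channel TRPV6 fell by 0.67, the HES family repressor HES2 by 0.61 and the receptors NOTCH1 and NOTCH3 by 0.25 and 0.28 on the log2 scale. Of 31 Notch and WNT genes tested, 5 were called lower, 1 of them a trace gene, and 2 higher, DKK1 and DKK3 (median -0.06). SPP1, which encodes osteopontin, had 1.90, 0.881 and 0.0745 CPM under GSK-J1 and 4.47, 2.23 and 0.154 CPM under sham (log2 fold change -1.26, standard error 0.15, edgeR adjusted p = 3.48e-06). Collagenase MMP1 fell by 0.83, the protease inhibitor TIMP3 by 0.33 and plasminogen activators PLAT and PLAU by 0.26 and 0.21, while of 31 matrix and protease genes tested 8 were called lower, 3 of them trace genes, and 2 higher. CCL2, a chemokine for monocytes, fell by 0.95, but it did not pass without GSK-J1 replicate 1 (adjusted p = 0.358). H19, an imprinted noncoding RNA and the most abundant called transcript, had 27600, 32190 and 24930 CPM under GSK-J1 and 33950, 35860 and 28400 CPM under sham (log2 fold change -0.21, edgeR adjusted p = 0.0315). Without GSK-J1 replicate 1, PLAT, PLAU and H19 were not called (lowest edgeR adjusted p = 0.134). In GSK-J1 with 4 Gy against 4 Gy, PLAT and PLAU were called lower, while H19 was not (log2 fold change 0.03, edgeR adjusted p = 0.810).

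Targets of the glucocorticoid receptor moved both ways. Of 25 tested, 5 were called lower and 1 higher (median 0.04), and 7 and 2 without GSK-J1 replicate 1, when the median turned to -0.06. KLF9, a factor that glucocorticoids and FOXO proteins induce, had 2.65, 2.10 and 1.90 CPM under GSK-J1 and 4.39, 4.08 and 3.74 CPM under sham. The groups were apart (log2 fold change -0.89, standard error 0.11, edgeR adjusted p = 3.50e-06). FKBP5, a co-chaperone of the receptor and a classic target, was higher, with 31.4, 33.1 and 29.1 CPM under GSK-J1 against 25.1, 24.2 and 22.97 CPM under sham, also without overlap (log2 fold change 0.37, standard error 0.060, edgeR adjusted p = 0.000291). MT1X, a metallothionein, SDPR, a caveolar protein, the sodium channel subunit SCNN1A and BIRC3, an inhibitor of apoptosis, were the other members called lower. BMF, which sets off apoptosis through BCL2 proteins, had 5.90, 6.45 and 5.76 CPM under GSK-J1 and 9.12, 10.7 and 8.70 CPM under sham, without overlap (log2 fold change -0.65, standard error 0.080, edgeR adjusted p = 5.45e-06). LINC00511, a long noncoding RNA, had 13.3, 10.1 and 10.7 CPM under GSK-J1 and 22.1, 16.2 and 15.7 CPM under sham, and no GSK-J1 library reached a sham library.

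**Figure D3:**
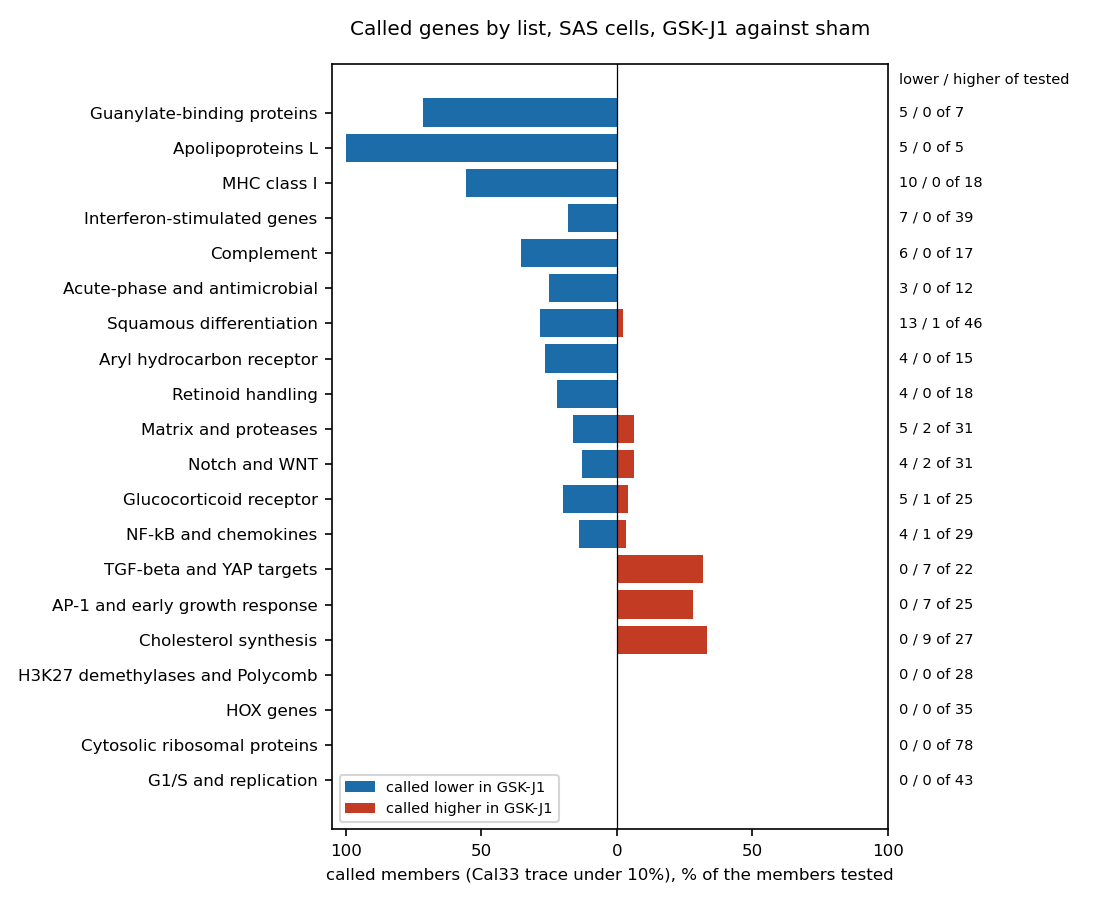
Share of the tested members of 20 gene lists (rows) that were called lower (blue, to the left) or higher (red, to the right) under GSK-J1, in percent, with trace genes not counted as called and the counts at the right. Lists of interferon, defence and differentiation genes lie to the left, with 5 of 5 apolipoproteins L and 10 of 18 MHC class I genes, and targets of AP-1, TGF-beta and YAP and cholesterol synthesis to the right.

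The genes called higher were fewer and were expressed at higher levels, with a median of 50.7 CPM against 14.3 CPM for the lower genes and 2.95 CPM for all genes tested. TRIML2, a member of the tripartite motif family, was higher, with 40.4, 42.5 and 41.7 CPM under GSK-J1 and 27.7, 26.2 and 28.7 CPM under sham (log2 fold change 0.59, standard error 0.058, edgeR adjusted p = 1.76e-07). All GSK-J1 libraries lay above all sham libraries. AXL, a receptor tyrosine kinase of mesenchymal and drug-tolerant carcinoma cells, had 248, 254 and 490 CPM under GSK-J1 and 174, 184 and 367 CPM under sham (log2 fold change 0.46, standard error 0.050, edgeR adjusted p = 7.28e-07). Carboxypeptidase CPA4 had 245, 178 and 283 CPM under GSK-J1 and 150, 122 and 225 CPM under sham (log2 fold change 0.53, standard error 0.058, edgeR adjusted p = 1.01e-06). Both genes were higher in each pair, and replicate 3 held the highest level in either group. The adhesion genes CDH4 (R-cadherin) and CDH2 (N-cadherin) rose by 0.68 and 0.64 on the log2 scale, while the tight junction genes CLDN1, CLDN4 and CLDN7 fell by 0.28, 0.23 and 0.26. The 24 epithelial and mesenchymal genes tested, CDH2 and these claudins among them, had 11 positive and 13 negative log2 fold changes (median -0.02). Of the list, 1 was called higher and 3 lower, and 1 and 1 without GSK-J1 replicate 1. CLDN4 and CLDN7 were not called without that library (edgeR adjusted p = 0.119 and 0.0703). IL1RL1, the receptor of the alarmin IL33, SEMA3C, a secreted guidance factor, and ODC1, which opens polyamine synthesis, were higher by 0.65, 0.39 and 0.30.

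Some targets of TGF-beta and YAP and some genes of AP-1 and growth factor signalling were higher, while most members of both lists were not called. Of 22 targets of TGF-beta and YAP tested, 7 were called higher and none lower (median 0.08), and 5 and 1 without GSK-J1 replicate 1, when the median was 0.02. CTGF, which encodes a matricellular protein and is a target of YAP, had 4.32, 2.00 and 2.77 CPM under GSK-J1 and 2.91, 1.36 and 1.94 CPM under sham (log2 fold change 0.55, standard error 0.11, edgeR adjusted p = 0.00336). The YAP targets CYR61, also matricellular, and ANKRD1, a cofactor, rose by 0.24 and 0.39, and the ligand TGFB1 by 0.20. Of 25 AP-1 and early growth response genes tested, 7 were called higher and none lower (median 0.14), and 4 and none without GSK-J1 replicate 1, when the median was 0.03. FOSL1, the AP-1 subunit FRA1, had 107, 80.7 and 192 CPM under GSK-J1 and 87.0, 58.0 and 143 CPM under sham (log2 fold change 0.40, standard error 0.052, edgeR adjusted p = 1.24e-05). JUN had 87.3, 32.9 and 68.5 CPM under GSK-J1 and 64.7, 27.02 and 50.4 CPM under sham (log2 fold change 0.39, standard error 0.054, edgeR adjusted p = 3.90e-05). In every pair the GSK-J1 library was the higher, and the groups overlapped. ETV4 and ETV5, factors that ERK signalling induces, rose by 0.22 and 0.31, and the ERK phosphatases DUSP4, DUSP5 and DUSP6 by 0.37, 0.20 and 0.20. The EGFR ligands AREG and HBEGF rose by 0.35 and 0.33, whereas the receptor ERBB3 fell by 0.22, and the cytokines LIF and IL11 rose by 0.35 and 0.70. LAMA3, which encodes a chain of the laminin of the basement membrane, rose by 0.36, with 122, 101 and 122 CPM under GSK-J1 and 97.4, 80.8 and 91.0 CPM under sham.

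Some cholesterol synthesis genes were called higher, and these calls rested on pair 1. Of 27 genes tested, 25 had a positive log2 fold change and 10 were called higher and none lower (median 0.16), with 1 trace gene among the 10. The median over the list was 0.29 in pair 1, 0.19 in pair 2 and 0.08 in pair 3, and without GSK-J1 replicate 1 it was 0.09 and 1 gene was called. HMGCS1, which feeds acetyl units into the pathway, had 437, 308 and 70.4 CPM under GSK-J1 and 260, 215 and 67.4 CPM under sham (log2 fold change 0.45, standard error 0.075, edgeR adjusted p = 0.000374, and 0.0116 without GSK-J1 replicate 1). INSIG1, which retains the sterol sensor in the endoplasmic reticulum, had 123, 99.8 and 26.2 CPM under GSK-J1 and 88.5, 86.4 and 25.1 CPM under sham (log2 fold change 0.26, standard error 0.061, edgeR adjusted p = 0.016, and 0.802 without that library). Replicate 3 of both groups was the lowest for both genes. SQLE and FDFT1, enzymes of squalene, and the desaturase SCD were called higher as well, by 0.24, 0.28 and 0.26.

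Other lists held few called genes or none. Of 36 hypoxia and glycolysis genes tested, 3 were called lower, NDRG1, CA9 and EGLN3, and 1 higher, VEGFA. The transferrin receptor TFRC, with a log2 fold change of 0.28, the asparagine synthetase ASNS and the pseudokinase TRIB3, both of the integrated stress response, at 0.25 and 0.22, were higher. ASNS and TRIB3 were the 2 called of 29 integrated stress response genes tested. Without GSK-J1 replicate 1, VEGFA, ASNS and TRIB3 were not called (lowest edgeR adjusted p = 0.2935), while TFRC was (0.00725). The lists of the circadian clock, G1/S and replication, G2/M and mitosis, the centromere, double-strand break repair, clustered histones, heat shock proteins, the unfolded protein response and the 78 cytosolic ribosomal proteins had no called gene in edgeR's blocked fit, in DESeq2 or limma with the block, or without GSK-J1 replicate 1, although 41 of their 325 genes had an unadjusted edgeR p under 0.05. The medians of G1/S and replication (43 genes) and of G2/M and mitosis (39) were 0.07 and 0.09, and 35 and 34 of their log2 fold changes were positive, while 50.9% of all genes tested had a positive value. In GENCODE 87.1% of the 388 lower genes, 87.7% of the 146 higher genes and 64.1% of the genes tested are listed as protein coding. Genes without a match there (22147 of the 23040 tested had one) count as not protein coding. Neighbouring genes were called lower together in runs of 3 or 4 on chromosomes 3, 10, 11, 12, 18 and 22, among them SERPINB13, SERPINB4 and SERPINB3 on chromosome 18, from 61254223 to 61329197. In all, 61 of the 388 lower genes (15.7%) and 8 of the 146 higher ones (5.48%) stood next to a gene called in the same direction. No share over all genes tested stands beside these counts, and some runs hold paralogs, so they are descriptions only.

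The irradiated SAS libraries give the same contrast in 6 libraries that share none with the comparison above. There, GSK-J1 with 4 Gy was set against 4 Gy with the same blocked edgeR fit, which called 1066 of 23857 genes higher (4.47%) and 837 lower (3.51%), a count that lay between 559 and 3557 when a library was left out, and 0 without the block (814 at an unadjusted p under 0.05). Of the 388 genes called lower without irradiation, 354 were lower there too, 226 were called lower and 6 were called higher. Of the 146 called higher, 118 were higher, 38 were called higher and 1 was called lower. The median log2 fold change was -0.40 for the 388 genes and 0.29 for the 146 without irradiation, and -0.23 and 0.09 with 4 Gy, where all genes tested had a median of -0.0066. CYP1B1, GBP4, S100A9, SECTM1, ALPP, APOL4 and IRF1 were called lower again (log2 fold changes -0.63, -0.55, -0.74, -0.55, -0.81, -0.98 and -0.33, highest edgeR adjusted p = 1.37e-06). AXL, CPA4, SEMA3C, CDH4, FKBP5 and TFRC were called higher again (0.24, 0.18, 0.27, 0.35, 0.21 and 0.29, highest edgeR adjusted p = 0.00194). FOSL1, JUN and LIF were not (-0.01, 0.10 and -0.02, lowest edgeR adjusted p = 0.192).

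**Figure D4:**
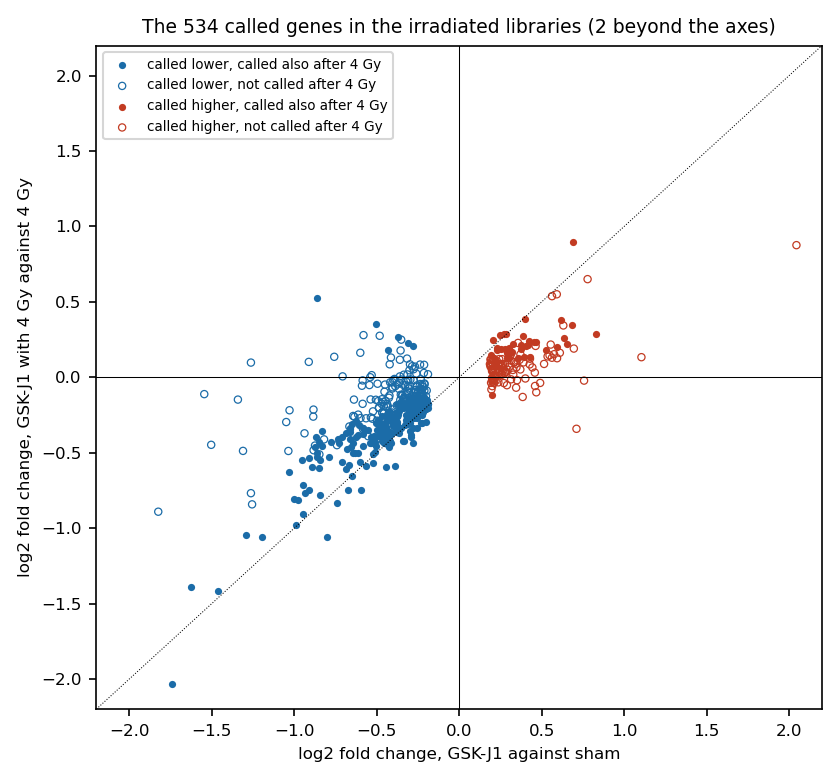
Log2 fold change of the 534 called genes outside the trace in unirradiated SAS cells (horizontal, GSK-J1 against sham) and in irradiated ones (vertical, GSK-J1 with 4 Gy against 4 Gy), with filled points for genes called in both and a dotted line of equal change, and 2 genes beyond the axes. Most of the 388 lower genes (blue) lie in the lower left with a smaller change after 4 Gy, and the 146 higher genes (red) lie closer to 0 on the vertical axis.

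The difference between the unirradiated and the irradiated effect was tested in 1 fit of the 12 SAS libraries, and 23 of 23416 genes (0.0982%) were called. TNFSF10 and GBP4 fell more under GSK-J1 without irradiation, with log2 fold changes of -0.85 and -0.95 without and of -0.43 and -0.55 with 4 Gy (edgeR adjusted p of the difference = 0.019 and 0.0385). TRIML2, FOSL1 and LIF were raised more without irradiation (differences 0.46, 0.40 and 0.36, edgeR adjusted p = 0.0101, 0.0121 and 0.0427). CREG1, a lysosomal glycoprotein, had 102, 106 and 80.8 CPM under GSK-J1 and 112, 124 and 113 CPM under sham, a fall of 0.28, and rose by 0.20 in the irradiated libraries (edgeR adjusted p of the difference = 0.0101). This count moved between 6 and 387 as single libraries were left out, and was 106 without both libraries that hold Cal33 transcripts.

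In Cal33 GSK-J1 and sham were compared without a block, since earlier results of these data gave no pairing of their numbers. That pairing was not examined again here. Against Cal33, 6 of 24258 genes (0.0247%) had a called difference of the GSK-J1 effect (422 at an unadjusted p under 0.05). All 6 are trace genes, and edgeR called 0 when trace genes were left out (315 at an unadjusted p under 0.05) or when GSK-J1 replicate 1 was (267). The median log2 fold change in Cal33 was -0.03 over the 388 genes and 0.04 over the 146, with 239 of the 388 lower (52.5% of all genes with a value) and 101 of the 146 higher. Standard errors in Cal33 were wide, as for GBP4 (log2 fold change -0.16, standard error 0.25) and CYP1B1 (-0.30, standard error 0.33), and the difference of the lines was not called for either gene (-0.80 and -0.73, edgeR adjusted p = 1 for both).

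The genes lower under GSK-J1 were also those that separated replicate 3 from replicates 1 and 2, in sham as in GSK-J1 cells. Among called genes outside the trace with a mean of at least 1 CPM, replicate 3 was the lowest of the 3 GSK-J1 libraries for 321 of 367 lower genes (87.5%) and the lowest of the 3 sham libraries for 314 (85.6%). For the 12595 genes not called the shares were 34.3% in GSK-J1 and 35.7% in sham libraries. The libraries of the irradiated arm, which did not enter the calls, showed this more weakly, with replicate 3 the lowest for 63.5% of the lower genes in GSK-J1 with 4 Gy (29% of genes not called) and for 66.5% in 4 Gy (30.9%). Of 143 higher genes, replicate 3 was the highest for 55.9% in GSK-J1, 57.3% in sham, 48.3% in GSK-J1 with 4 Gy and 49% in 4 Gy libraries, against 43.8%, 44.9%, 36.3% and 38.2% of genes not called. The median distance of replicate 3 from the mean of replicates 1 and 2 over the lower genes was -0.77 on the log2 scale in GSK-J1 and -0.81 in sham libraries, larger than their median change under GSK-J1 of -0.40. What the replicate numbers stand for is not given in the sources used here, and its part in the result was not tested.

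**Figure D5:**
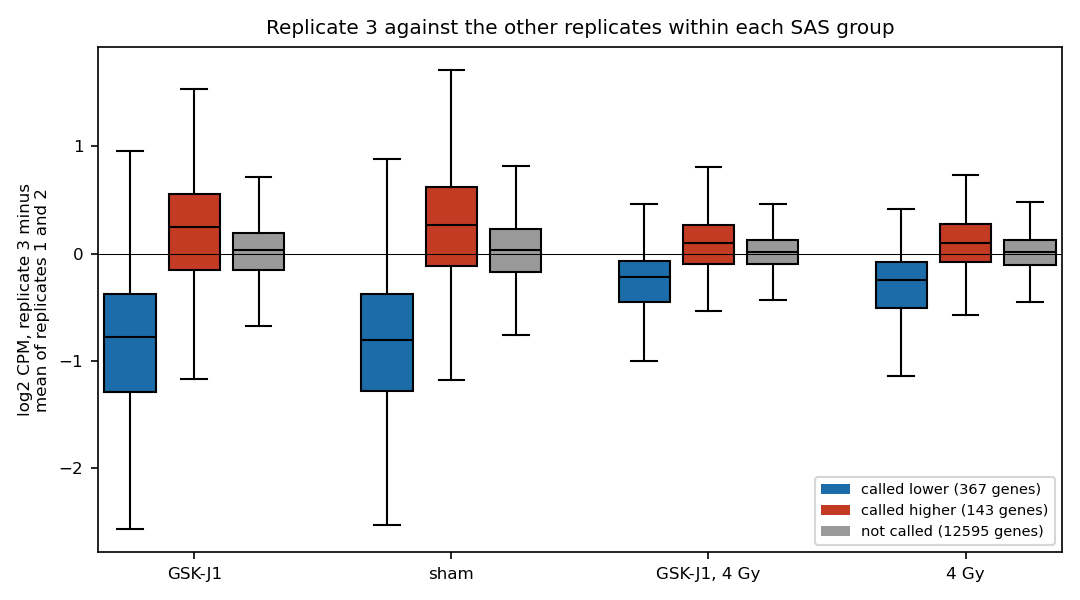
Log2 CPM of replicate 3 minus the mean of replicates 1 and 2 (vertical) within each SAS group (horizontal), for genes called lower (blue), called higher (red) and not called (grey) with a mean of at least 1 CPM and outside the trace. Boxes show quartiles with the median as a line and whiskers reach 1.5 box lengths. The medians of the lower genes are -0.77 in GSK-J1, -0.81 in sham, -0.22 in GSK-J1 with 4 Gy and -0.25 in 4 Gy libraries, below those of genes not called.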

How the data were processed

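RNA was measured in SAS cells by paired-end sequencing of stranded total RNA libraries, 3 under GSK-J1 and 3 under sham. Per the labels and the methods of the study, the authors aligned the reads to hs37d5 with STAR 2.5.3a, used SAMtools 1.6 and counted reads per gene with featureCounts of Subread 1.5.1, and the gene annotation is not given in the sources used here. The deposited values are raw counts for 57820 genes, neither filtered nor normalized. Counts in the sense direction of each gene entered all fits. They were 94.88 to 95.18% of all strand-assigned counts, with 67945989 to 96138774 per library. FPKM and TPM columns of the same files were not used.

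Genes that averaged 1 count or more over the libraries of a fit were tested in R 4.3.3 with edgeR 4.0.16 (TMM, quasi-likelihood test, two-sided, Benjamini-Hochberg adjustment over all genes tested) with the replicate number as a block, since same-numbered libraries deviated together in each of 3 pairs (correlations 0.332, 0.29 and 0.539), although nothing states what a number marks. The standard error is the log2 fold change divided by the square root of F. Without a block, 3 against 3 libraries allow an exact permutation p of 0.1 at the lowest. The same fit was run for GSK-J1 with 4 Gy against 4 Gy and for differences of the effect between arms and lines. The Cal33 trace of a gene is its mean level in Cal33 times the share found over 8 marker genes, relative to its counts in GSK-J1 replicate 1.

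Genes were named by rule: KDM6A, KDM6B and stem cell markers, genes the study drew for SAS, the 15 called genes with the largest change and the 10 with the smallest p in each direction at 1 CPM or more, with a trace under 10% and 3 pairs in 1 direction, the 15 smallest p in each direction also called after 4 Gy, the called members of 39 lists, and the 5 called genes with the smallest p in each direction of each difference. Some genes that these rules select are not reported here. Other genes, and 8 families, were named after their values were seen. The comparison, the members and the lists were chosen with earlier results of these data known. Alternatives were DESeq2 1.42.0, limma 3.58.1, other size factors, filters and thresholds, unstranded counts, fits with no block, and each library left out. The fits were also run on simulated counts in which same-numbered libraries were given a shared deviation. That run cannot tell whether such pairing holds in these data.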

Additional observations from a re-analysis of the deposited data

Results flagged for a closer look

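The effect of GSK-J1 was tested for a difference between the unirradiated and the irradiated SAS libraries, and 23 genes passed (edgeR adjusted p under 0.05). Among those with the smallest p in each direction, the difference of the log2 fold changes (unirradiated minus irradiated) was 1.26 for KRT6A, 0.46 for TRIML2, 0.40 for FOSL1 and 0.36 for LIF, and -0.50 for CREG1, -0.52 for TFPI, -0.43 for TNFSF10, -0.41 for GBP4 and -0.39 for B3GNT5. KRT6A, a keratin of activated keratinocytes, is a trace gene, with 67.3% of its counts in GSK-J1 replicate 1 ascribed to Cal33. Without that library it was still called higher without irradiation (log2 fold change 0.74, edgeR adjusted p = 4.80e-09), with 23.1 CPM in GSK-J1 replicate 2 and 9.09 CPM in sham replicate 2, and 6.57 and 6.20 CPM in replicate 3. TFPI, the inhibitor of tissue factor, had log2 fold changes of -0.42 without and 0.09 with irradiation, and B3GNT5, a glycolipid transferase, of -0.20 and 0.17.

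Between SAS and Cal33 the effect differed for 6 genes, and all 6 are trace genes that Cal33 transcribes and SAS does not.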

How the results depend on the processing

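The 596 calls of GSK-J1 against sham became 376 with DESeq2 and the block, 359 at an adjusted p under 0.01, 151 with a change of at least 1.5-fold as well, and between 360 and 762 when single libraries were left out. Leaving out GSK-J1 replicate 1 (386) or sham replicate 1 (360) took away the most, and either leaves pairs 2 and 3 with 1 residual degree of freedom. With no replicate block the count was 0 in edgeR on 6 libraries, 0 on 12 SAS libraries (486 at an unadjusted p under 0.05) and 1 in DESeq2. With no replicate block it was also 0 for GSK-J1 with 4 Gy against 4 Gy, for the difference of the lines and for that of the arms. Leave-one-out counts ran from 559 to 3557 for GSK-J1 with 4 Gy, from 0 to 8 for the lines and from 6 to 387 for the arms. For GSK-J1 with 4 Gy the lowest came without replicate 2 and the highest without replicate 3 of either group, for the lines 0 came without SAS GSK-J1 or sham replicate 1, and for the arms the highest came without replicate 2 of either unirradiated group. Among alternatives chosen after seeing the data, the lines gave 0 without trace genes and the arms 106 without both libraries that hold the trace. Other size factors, filters, limma, unstranded counts, an adjusted p under 0.1, the fit without trace genes and the block within each arm gave 544 to 776 calls. Of 132 named genes called, 1 reversed, the trace gene KRT13, with a log2 fold change of -1.14 without GSK-J1 replicate 1, -1.12 without sham replicate 1 and up to 5.54 without others, and 18 lost their call in DESeq2 with the block, 3 in limma with it, and 42 without GSK-J1 replicate 1.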
